A study of Mus musculus with 22 samples.

Results

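The comparison set colon epithelium of wild-type (WT) mice given antibiotics against that of untreated WT mice, with 5 arrays in each group, chosen by the treatment named in the array titles out of 22 arrays in all. All mice were male BALB/c mice of 6 to 10 weeks. The treated group had received antibiotics for 17 days before the colon was taken, and the sources used here do not name them. The other 12 arrays came from mice with a knockout of pIgR, the polymeric immunoglobulin receptor (KO), 6 untreated and 6 given antibiotics for the same time, and they show where the WT effect differs. They also share in the normalisation and in the estimate of the spread between arrays. Without single KO arrays in the fit, with the normalisation over all 22 arrays kept, the count of called WT probes was 861 to 1222. Epithelial cells were released from the opened colon by shaking in 20 mM EDTA for 25 min and by hand for 5 min, and no sorting step is named, so that lymphocytes and other cells of the mucosa may be present. Nothing says that each array held the RNA of 1 mouse, so the p-values reflect only how these samples vary, which may be technical.

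The colonic epithelium is a single cell layer of absorptive colonocytes, mucus-secreting goblet cells, hormone-secreting enteroendocrine cells and chemosensory tuft cells, renewed from dividing cells in the crypts. It faces the densest microbial community of the body and keeps it at a distance with mucus, antimicrobial lectins, lytic enzymes and reactive oxygen made at the cell surface. It also presents antigen to T cells through MHC class II when interferon gamma induces it, clears foreign chemicals through cytochrome P450 and conjugating enzymes, and takes up salt and water. Comparison with germ-free mice has shown for several of these genes, such as Reg3g and Fut2, that their expression in the gut depends on bacteria. The comparison asks which transcripts of this epithelium differed after the microbiota had been under antibiotics.

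Values are log2 signals after background correction and quantile normalisation, so a difference of 1 is a 2-fold change, and a gene is called, or said to have risen or fallen, where its adjusted p in the limma fit was under 0.05. Between 16100 and 18367 probes were detected per WT array, with a mean of 17833 ± 418 (SD, n = 5) untreated and 17479 ± 809 (SD, n = 5) with antibiotics (difference -354, exact two-sided permutation p = 0.492, where the smallest p possible is 0.00794). Correlations between WT arrays ran from 0.933 to 0.987. Untreated arrays 3 and 4 did not stand apart by correlation within their own group (mean r 0.971 and 0.974, beside 0.973 to 0.977 for untreated arrays 1, 2 and 5). They correlated least of the untreated arrays with the antibiotic arrays (mean r 0.951 and 0.954), and many of the genes below were highest there. Their sample numbers in the labels, whose meaning is not given, are adjacent, but this is not particular to them. Untreated arrays 1 and 2 have adjacent numbers too, as do antibiotic arrays 2 and 3. Untreated array 5 and antibiotic arrays 4 and 5 have consecutive numbers. No antibiotic array has a number next to those of untreated arrays 3 and 4. Antibiotic array 2 had the fewest detected probes and the lowest weight of the WT arrays (0.500), and antibiotic array 3 correlated with the untreated arrays (mean r 0.972) no less than with its own group (0.969). Because many genes were highest on untreated arrays 3 and 4, calls were also made without both of them. The epithelial markers Epcam, Cdh1, Krt8, Krt20, Vil1 and Cdx2 were detected on all 10 arrays and none was called, while the keratin gene Krt18 was called lower (-0.60, adjusted p = 0.0407). Krt8, a keratin of simple epithelia, had a mean of 14.32 ± 0.09 (SD, n = 5) untreated and 14.41 ± 0.16 (SD, n = 5) with antibiotics, and Cdx2, the transcription factor gene of intestinal identity, 11.06 ± 0.17 and 10.95 ± 0.34.

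With antibiotics, 950 of 19993 tested probes differed (4.75%), 497 higher (2.49%) and 453 lower (2.27%). With 1 probe per gene these were 596 of 10705 genes (5.57%), 285 higher (2.66%) and 311 lower (2.91%). These shares over all genes are the background for the counts of called members of each gene list below. The lists were chosen with earlier results of these data known, so the counts describe the lists and are no test of enrichment. More genes fell than rose by over 2-fold, 139 against 70 of the called genes, while the median log2 difference of all genes was 0.02. The 2 groups of 5 arrays did not overlap for 723 genes (6.75%), of which 382 were called. Without untreated arrays 3 and 4 the probe count was 187, of which 181 were among the 950. The count was 411 without untreated array 3 alone, 480 without untreated array 4, 541, 608, 505 and 515 without antibiotic array 1, 2, 4 or 5, 629 without untreated array 1, and 1314 without antibiotic array 3. Scaling each array to the median of all probes in place of quantile normalisation gave 237 probes, 76 higher and 161 lower, which moved the share of higher calls from 52.3% to 32.1%. Of 98 called genes named in the following paragraphs, 33 were also called without untreated arrays 3 and 4 together, and 52 with each single array left out in turn. Those called without the pair are Pla2g2a, Reg3g, Reg3b, Dlk1, Plet1, Cd177, Gsdmc4, Duoxa2, Gpx2, Saa1, Kif23, Bub1b, Cdc20, Birc5, Chac1, Cyp4b1, Cyp4b1-ps2, Cyp2d26, Cyp2d10, Cyp4f14, Cyp2c55, Cyp27a1, Naaladl1, Sis, Slc7a9, Scnn1g, Kcnn4, Mt1, Bmp1, Nbl1, Odf3b, Acad12 and Acacb, and the calls of all other genes named below were lost without it. Of 46 of these genes that have several tested probes, all probes had the same sign in 46 and all were called in 21.

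**Figure D1:**
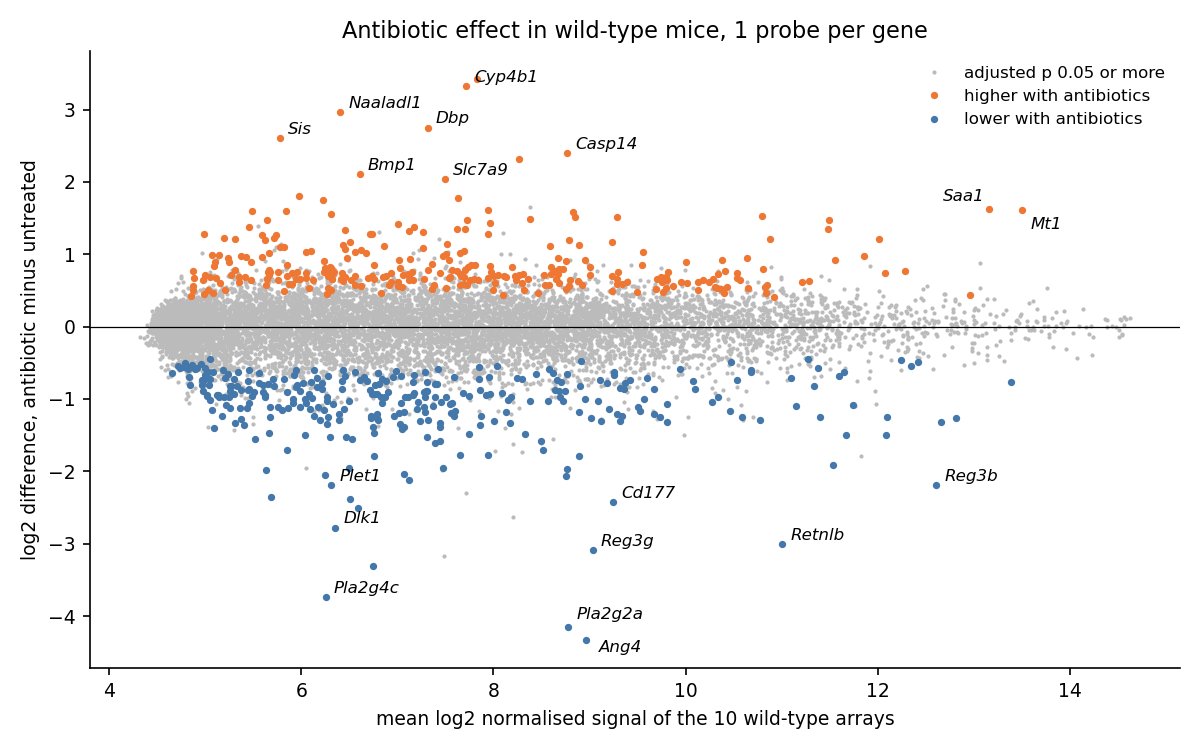
Mean log2 normalised signal of the 10 WT arrays (x axis) and log2 difference, antibiotic minus untreated (y axis), for 10705 genes with 1 probe each. Orange points are the 285 genes that rose, blue points the 311 that fell and grey points genes with an adjusted p of 0.05 or more. The falls of Ang4, Pla2g2a and Pla2g4c reach further from 0 than any rise.

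Secreted antimicrobial proteins included the largest falls. Transcripts of the phospholipase Pla2g2a, the lectins Reg3g and Reg3b, the goblet cell peptide Retnlb and the ribonuclease Ang4 were lower with antibiotics, by 4.54-fold to 20.1-fold, while Zg16 and Lypd8, other defence genes whose products keep bacteria off the epithelium, were not called (differences 0.12 and 0.10). Of 24 tested antimicrobial genes 5 fell and none rose (20.8% called, beside 5.57% of all genes), with a median log2 difference of 0.03 beside 0.02 over all genes, and in KO mice, where 14.8% of all genes were called and 8.6% fell, 7 of them fell. Pla2g2a, a secreted phospholipase A2 that degrades the membranes of Gram-positive bacteria, read 9.83, 9.41, 13.47, 11.86 and 9.71 on untreated arrays 1 to 5 and 6.20, 6.94, 6.66, 6.40 and 7.28 on antibiotic arrays 1 to 5. Every antibiotic array was below every untreated one, with the highest values on untreated arrays 3 and 4. The fall was 17.8-fold (log2 -4.16, SE 0.52, adjusted p = 7.88e-05), it was called with every single array left out, and without untreated arrays 3 and 4 the log2 difference was -2.95 (adjusted p = 3.56e-05).

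Reg3g, a C-type lectin that kills Gram-positive bacteria, read 12.28, 11.05, 8.38, 10.94 and 10.23 on untreated arrays 1 to 5 and 6.97, 8.08, 7.75, 7.53 and 7.10 on antibiotic arrays 1 to 5. The groups did not overlap, and the lowest untreated array was array 3, where Pla2g2a was highest. Reg3g fell 8.52-fold (log2 -3.09, SE 0.52, adjusted p = 0.00125), and without untreated arrays 3 and 4 the difference was -3.70 (adjusted p = 0.000587). The related lectin gene Reg3b read 14.70, 14.04, 12.19, 13.94 and 13.60 on untreated arrays 1 to 5 and 10.80, 11.65, 12.11, 11.69 and 11.30 on antibiotic arrays 1 to 5. Its groups did not overlap, but untreated array 3 (12.19) lay just above antibiotic array 3 (12.11). The fall was 4.54-fold (log2 -2.18, SE 0.53, adjusted p = 0.0187), and the call was lost without untreated array 1 or antibiotic array 1 (adjusted p 0.0546 to 0.0548).

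Retnlb encodes a resistin-like molecule secreted by goblet cells. It read 12.53, 10.31, 14.31, 13.86 and 11.51 on untreated arrays 1 to 5 and 9.79, 9.35, 8.82, 9.27 and 10.25 on antibiotic arrays 1 to 5. The groups did not overlap, although untreated array 2 and antibiotic array 5 were 0.06 apart. Retnlb fell 8.05-fold (log2 -3.01, SE 0.68, adjusted p = 0.0119), not called without untreated array 3 (adjusted p = 0.0501) nor without untreated arrays 3 and 4 together (-1.95, adjusted p = 0.223). Ang4, an angiogenin-type ribonuclease of goblet and Paneth cells with bactericidal activity, read 11.93, 6.51, 13.96, 13.67 and 9.58 on untreated arrays 1 to 5 and 8.36, 6.06, 6.40, 4.53 and 8.66 on antibiotic arrays 1 to 5. Untreated array 2 lay within the antibiotic range, so the groups overlapped. The mean difference of Ang4 was the largest measured among called genes (log2 -4.33, SE 1.22, adjusted p = 0.0408), but the call was lost without untreated array 1, 3 or 4 or antibiotic array 1, 2, 3 or 4 (adjusted p 0.0521 to 0.137), and without untreated arrays 3 and 4 together the difference was -2.54 (adjusted p = 0.424). Itln1, a lectin gene of goblet cells that binds microbial sugars, had the same order of untreated arrays and was not called (log2 -3.17, SE 0.99, adjusted p = 0.0653): it read 9.24, 6.06, 11.30, 11.09 and 7.67 on untreated arrays 1 to 5 and 7.15, 5.30, 4.80, 4.79 and 7.48 on antibiotic arrays 1 to 5.

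**Figure D2:**
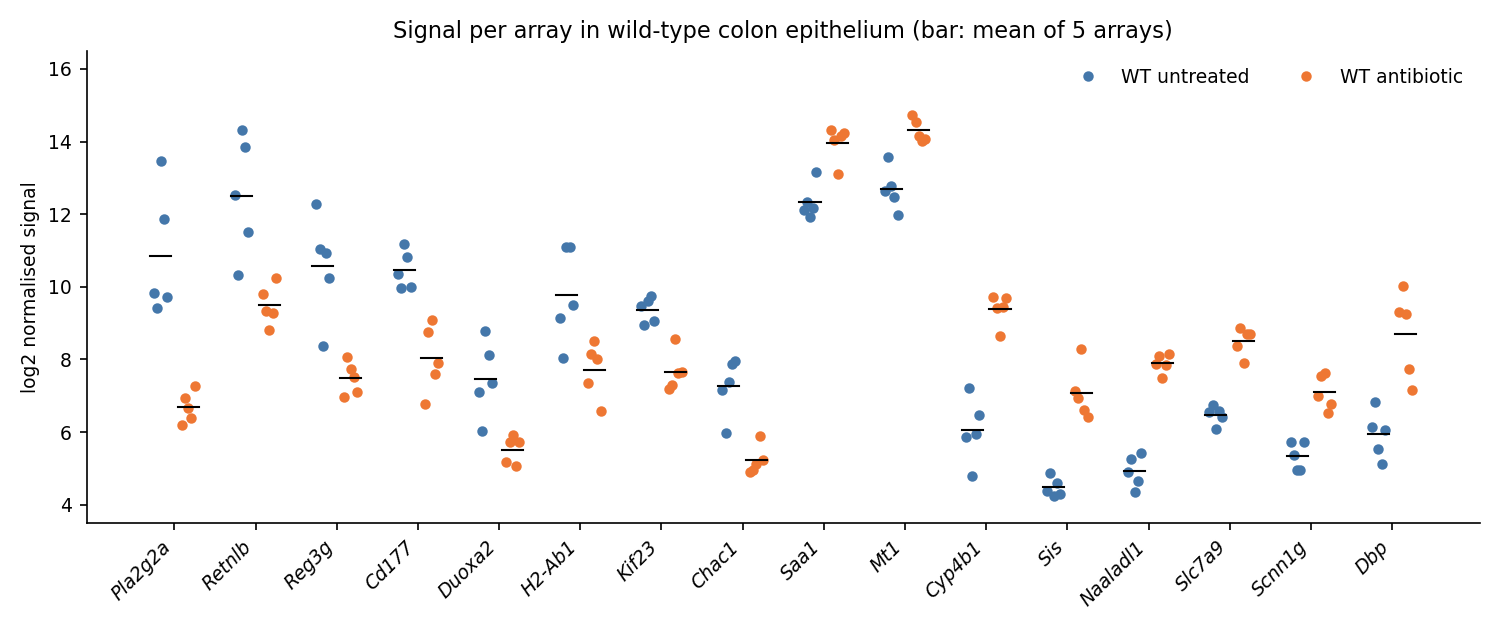
Log2 normalised signal (y axis) of 16 genes on each of the 5 untreated (blue) and 5 antibiotic (orange) WT arrays, with a bar at each group mean. The first 8 genes were lower and the last 8 higher with antibiotics. The groups overlap for H2-Ab1, whose untreated array 2 is below 2 antibiotic arrays, and for Saa1, whose antibiotic array 3 is below the highest untreated array.

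Dlk1, Plet1 and Cd177 also fell, and each was called with every single array left out. Dlk1, an imprinted gene whose membrane protein resembles Notch ligands, read 8.80, 7.82, 7.22, 7.33 and 7.55 on untreated arrays 1 to 5 and 4.71, 5.28, 5.26, 4.68 and 4.90 on antibiotic arrays 1 to 5. All antibiotic arrays were below all untreated arrays by a wide margin, and the fall was 6.85-fold (log2 -2.78, SE 0.25, adjusted p = 9.81e-07). Plet1, a surface glycoprotein gene of epithelia, fell 4.56-fold (log2 -2.19, SE 0.27, adjusted p = 5.48e-05), from 6.55 to 8.16 untreated to 4.91 to 5.62 with antibiotics. Cd177, a GPI-anchored surface protein gene best known from neutrophils, read 10.34, 9.96, 11.17, 10.82 and 9.99 on untreated arrays 1 to 5 and 6.77, 8.75, 9.10, 7.61 and 7.92 on antibiotic arrays 1 to 5. Its groups did not overlap and it fell 5.38-fold (log2 -2.43, SE 0.34, adjusted p = 0.000197), also without untreated arrays 3 and 4 (-2.07, adjusted p = 0.00961).

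Among 22 genes of antiproteases and epithelial stress, 4 fell and none rose (18.2% called, beside 5.57% of all genes, median -0.41). These were Cd177, the pore-forming gasdermin genes Gsdmc4 and Gsdmc2, and Spink4, a protease inhibitor gene of goblet cells. Gsdmc4 read 6.86, 5.50, 8.70, 7.90 and 5.36 on untreated arrays 1 to 5 and 4.29, 4.47, 4.46, 4.89 and 4.40 on antibiotic arrays 1 to 5, above background on all untreated arrays and on 1 antibiotic array. It fell 5.13-fold (log2 -2.36, SE 0.44, adjusted p = 0.00316), and without untreated arrays 3 and 4 the difference was -1.40 (adjusted p = 0.0440). Gsdmc2, the more abundant of both by signal of its own probe, fell 3.78-fold (log2 -1.92, SE 0.37, adjusted p = 0.00368) from 11.26 to 13.80 untreated to 10.12 to 10.78 with antibiotics, with an adjusted p of 0.0552 without untreated arrays 3 and 4. Spink4 fell 2.83-fold (log2 -1.50, SE 0.29, adjusted p = 0.00383) from 12.07 to 13.79 untreated to 10.62 to 12.12 with antibiotics, and its adjusted p was 0.0930 without these arrays.

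The falls of Pla2g4c and Pnliprp2, a pair of lipid enzymes, rested on some of the untreated arrays. Pla2g4c, the gene of a cytosolic phospholipase A2, read 6.86, 4.33, 12.07, 10.86 and 6.49 on untreated arrays 1 to 5 and 4.27, 4.39, 4.64, 4.36 and 4.24 on antibiotic arrays 1 to 5. It was not above background on any antibiotic array nor on untreated array 2, and was highest on untreated arrays 3 and 4. The fall was at least 10.5-fold (log2 -3.74, SE 0.87, adjusted p = 0.0142), where the bound takes the dimmest detected probe on each antibiotic array, and it was not called without untreated array 4 (adjusted p = 0.0538) nor without arrays 3 and 4 together (-1.51, adjusted p = 0.0811). Pnliprp2, a lipase gene of the pancreas that is related to pancreatic lipase, read 8.60, 4.69, 11.26, 11.06 and 6.39 on untreated arrays 1 to 5 and 5.03, 4.48, 4.84, 4.38 and 6.76 on antibiotic arrays 1 to 5. Its groups overlapped, with untreated arrays 3 and 4 the highest. Other pancreas markers were present: the colipase gene Clps, detected on all 10 arrays, differed by -1.6 (adjusted p = 0.155) and the trypsin gene Prss2 was detected on 1 untreated and 2 antibiotic arrays. The summed signal of 12 adipocyte and pancreas markers was 2.52 to 20.8 untreated and 3.68 to 15.3 with antibiotics, in units of 1000 on a linear scale, and its part in the result was not tested. The fall of Pnliprp2 (log2 -3.30, SE 0.95, adjusted p = 0.0447) was lost without untreated array 1, 3 or 4, antibiotic array 1, 2, 3 or 4, KO untreated array 2, 3, 4 or 5 or KO antibiotic array 1 (adjusted p 0.0502 to 0.153) and without untreated arrays 3 and 4 (-1.46, adjusted p = 0.494).

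Genes of the surface oxidases fell while the serum amyloid genes Saa1 and Saa2 rose. Of 12 tested oxidase and acute phase genes 4 fell and 2 rose (50% called, beside 5.57% of all genes, median -0.48). In KO mice, where 8.6% of all genes fell and 6.16% rose, 9 fell and 1 rose. Duoxa2, the maturation factor gene of the hydrogen peroxide-producing dual oxidase, read 7.10, 6.02, 8.79, 8.12 and 7.34 on untreated arrays 1 to 5 and 5.16, 5.73, 5.91, 5.06 and 5.72 on antibiotic arrays 1 to 5. With no overlap of the groups, it fell 3.88-fold (log2 -1.96, SE 0.32, adjusted p = 0.000850), also without untreated arrays 3 and 4 (-1.30, adjusted p = 0.0111). Its partner Duox2, the oxidase itself, was near background: it was detected on 4 untreated arrays and 1 antibiotic array, with a difference of log2 -0.97, SE 0.26, adjusted p = 0.0317, and the call was lost without untreated array 3, 4 or 5 or antibiotic array 1, 2, 4 or 5 (adjusted p 0.0507 to 0.116). Nox1, the superoxide-producing oxidase of the colon, fell 3.25-fold (log2 -1.70, SE 0.37, adjusted p = 0.00894) from 6.00 to 8.22 untreated to 4.53 to 5.94 with antibiotics, with an adjusted p of 0.142 without untreated arrays 3 and 4. Gpx2, the gastrointestinal glutathione peroxidase gene, fell 2.81-fold (log2 -1.49, SE 0.25, adjusted p = 0.00118) from 11.94 to 13.26 untreated to 9.98 to 11.59 with antibiotics and stayed called without these arrays (adjusted p = 0.0303).

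Saa1, an acute phase apolipoprotein gene that colonic epithelium itself expresses, read 12.13, 12.35, 11.93, 12.16 and 13.16 on untreated arrays 1 to 5 and 14.31, 14.05, 13.10, 14.15 and 14.23 on antibiotic arrays 1 to 5. Antibiotic array 3 was just below untreated array 5, and all other antibiotic arrays were above every untreated one. Saa1 rose 3.08-fold (log2 1.62, SE 0.23, adjusted p = 0.000197), called with every single array left out and without untreated arrays 3 and 4 (1.43, adjusted p = 0.00917). Saa2 rose 2.32-fold (log2 1.21, SE 0.26, adjusted p = 0.00924) from 4.40 to 5.24 untreated to 5.16 to 6.39 with antibiotics, with an adjusted p of 0.0957 without those arrays. Probes of Saa1 and Saa2, which encode near-identical proteins, may share signal. Saa3, a further member of the family, was not called (log2 -0.59, SE 0.35, adjusted p = 0.370), and in KO mice its difference was -1.66 (adjusted p = 0.000931).

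MHC class II genes were lower with antibiotics, and the calls rested on untreated arrays 3 and 4. Of 12 tested MHC class II presentation genes 5 fell and none rose (41.7% called), with a median log2 difference of -1.39 beside 0.02 over all genes, the lowest median of the 41 lists. H2-Ab1, a beta chain gene of the class II molecule, read 9.15, 8.04, 11.10, 11.11 and 9.51 on untreated arrays 1 to 5 and 7.36, 8.14, 8.52, 8.01 and 6.57 on antibiotic arrays 1 to 5. Arrays 3 and 4 were the highest, and untreated array 2 lay within the antibiotic range. H2-Ab1 fell 4.18-fold (log2 -2.06, SE 0.49, adjusted p = 0.0166). H2-DMb1, H2-DMb2 and H2-DMa encode chains of the molecules that load peptide onto class II, and their differences were -2.38 (adjusted p = 0.0218), -2.04 (adjusted p = 0.0223) and -1.58 (adjusted p = 0.0385).

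Ciita, the coactivator gene that switches class II genes on, differed by -1.28 (SE 0.37, adjusted p = 0.0447), and Cd74, the invariant chain gene, was not called with the probe used (log2 -1.50, SE 0.46, adjusted p = 0.0584), although 1 of its 3 tested probes was. Cd74 read 9.88, 9.46, 12.04, 12.13 and 10.16 on untreated arrays 1 to 5 and 9.59, 8.87, 9.57, 9.47 and 8.69 on antibiotic arrays 1 to 5, again with arrays 3 and 4 above all others. Without untreated arrays 3 and 4 together 0 of the 12 genes were called by limma (3 at an unadjusted p under 0.05) and the median was -0.58. Leaving out only one array ended calls too: H2-Ab1 was lost without untreated array 3 or 4 or antibiotic array 5 (adjusted p 0.0587 to 0.0660), H2-DMb1 without untreated array 3 or 4 or antibiotic array 4 (adjusted p 0.0590 to 0.0758), H2-DMb2 without untreated array 3 or 4 or antibiotic array 4 or 5 (adjusted p 0.0590 to 0.0806), H2-DMa without untreated array 3 or 4 or antibiotic array 1, 2, 4 or 5 (adjusted p 0.0593 to 0.134) and Ciita without untreated array 1, 3 or 4, antibiotic array 1, 2, 4 or 5 or KO untreated array 2, 3 or 4 (adjusted p 0.0509 to 0.154). In KO mice, where 8.6% of all genes fell and 6.16% rose, 1 class II gene fell and 1 rose. The median log2 difference of the 12 genes in KO mice was -0.77, beside 0.01 over all genes.

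Markers of B cells, which also carry class II, and of plasma cells were measured as 1 list. Of 10 tested B and plasma cell markers none was called by limma (4 at an unadjusted p under 0.05), with a median of -0.76, while with only the WT arrays in the fit 4 were called lower. Their summed linear signal, in units of 1000, was 0.918 to 1.71 untreated and 0.678 to 1.13 with antibiotics, beside 2.43 to 12.6 and 1.69 to 2.67 for class II. The largest differences were those of Fcmr, an IgM receptor gene (log2 -2.30, SE 0.97, adjusted p = 0.186), and Cd79b, a B cell receptor chain gene (log2 -1.05, SE 0.47, adjusted p = 0.219), whose groups did not overlap. Jchain, which defines plasma cells, was not above background on any WT array, and Cd79a is unnamed here. Relative to the mean of all 22 arrays, the B and plasma cell list mean was 0.63, -0.04, -0.07, 0.34 and 0.50 on untreated arrays 1 to 5 and 0.02, -0.39, -0.27, -0.48 and -0.61 on antibiotic arrays 1 to 5. The class II list mean was highest on untreated arrays 3 and 4 (1.34 and 0.98), and so was that of granulocyte and mast cell markers (0.63 and 0.59, beside -0.79 to 0.38 on the other WT arrays). The part of these cells in the result was not tested. With a leukocyte marker score as a covariate 0 class II genes were called (8 at an unadjusted p under 0.05) and their median was -1.07. In bulk samples such as these, fewer cells of a type and less RNA per cell cannot be told apart.

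Interferon-stimulated genes gave few calls and were uneven among the untreated arrays. Of 36 tested genes 4 fell and 1 rose (13.9% called, beside 5.57% of all genes, median -0.60, with 33 differences below 0). The mean of the list was 0.96 and 1.02 on untreated arrays 3 and 4 and 0.29 on array 5, but -0.84 and -0.72 on arrays 1 and 2, beside -0.73 to -0.20 on the antibiotic arrays. Ifit2, an interferon-induced protein gene that blocks translation, read 5.90, 6.07, 9.03, 9.49 and 8.74 on untreated arrays 1 to 5 and 6.30, 4.84, 5.47, 5.16 and 4.95 on antibiotic arrays 1 to 5. Untreated arrays 3 to 5 were high, while untreated arrays 1 and 2 lay within the antibiotic range. The difference was log2 -2.50, SE 0.65, adjusted p = 0.0277, lost without untreated array 3, 4 or 5 or antibiotic array 2, 4 or 5 (adjusted p 0.0582 to 0.0939). Ifi47, a GTPase gene induced by interferon gamma, differed by -1.58 (SE 0.42, adjusted p = 0.0309) with overlapping groups, lost without untreated array 3 or 4 or antibiotic array 1, 3, 4 or 5 (adjusted p 0.0570 to 0.109). Irf8, a transcription factor gene, differed by -0.72 (adjusted p = 0.0250), lost without untreated array 3 or 4 or antibiotic array 4 or 5 (adjusted p 0.0586 to 0.0918). The guanylate-binding protein gene Gbp7, named after its value was seen, differed by -1.13 (adjusted p = 0.0407), lost without untreated array 3 or 4 or antibiotic array 1, 2, 4 or 5 (adjusted p 0.0719 to 0.142). Ifi27 went the other way with 0.62 (adjusted p = 0.0309), lost without untreated array 1, 3 or 4 or antibiotic array 2 or 5 (adjusted p 0.0747 to 0.107). With untreated arrays 3 and 4 left out together, 0 of 36 were called by limma (5 at an unadjusted p under 0.05) and the median was -0.06. Median scaling over all probes also gave 0 (12 at an unadjusted p under 0.05), and the leukocyte score as a covariate left 1 lower.

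Of 18 MHC class I presentation genes, whose products show peptides to CD8 T cells, 2 fell (11.1% called, beside 5.57% of all genes). The immunoproteasome subunit gene Psmb8 differed by -1.30 (adjusted p = 0.0466), with untreated arrays 3 and 4 the highest, and was not called without any one of 13 arrays, WT and KO (adjusted p up to 0.160). Calr, an endoplasmic reticulum chaperone gene, differed by -0.58 (SE 0.15, adjusted p = 0.0283), with groups that did not overlap, and was lost without untreated array 1, 3 or 5 or antibiotic array 1, 4 or 5 (adjusted p 0.0505 to 0.0921).

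**Figure D3:**
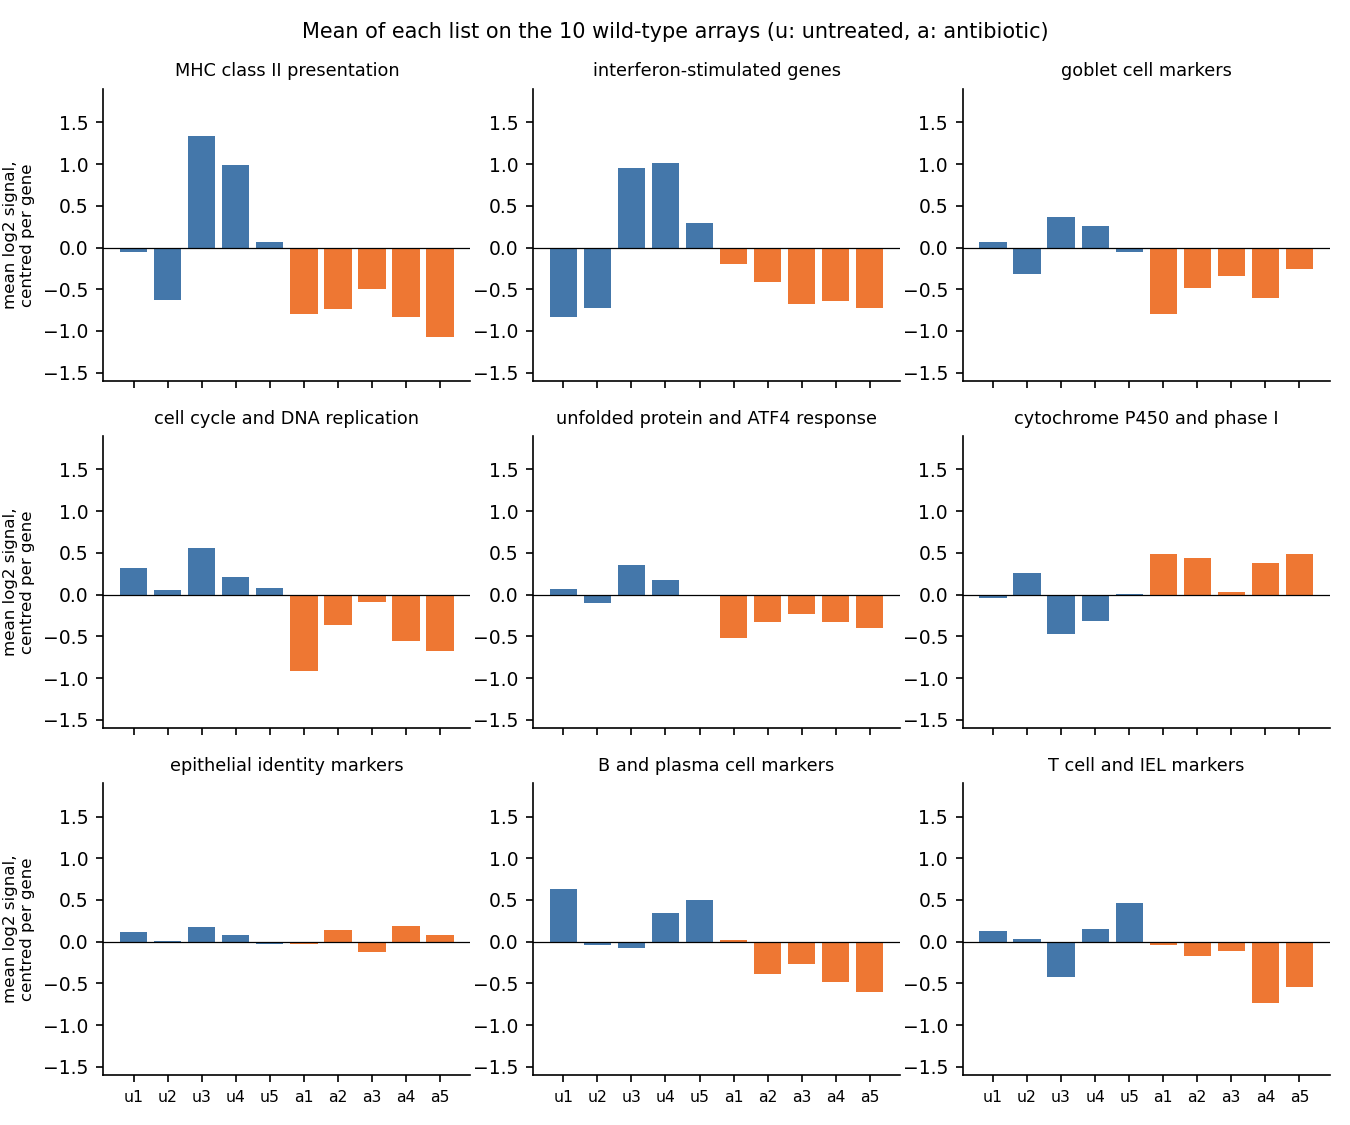
Mean log2 signal of 9 gene lists on each of the 10 WT arrays (bars; u, untreated, blue; a, antibiotic, orange), after each gene was centred on its mean over all 22 arrays. The MHC class II and interferon-stimulated lists are highest on untreated arrays 3 and 4, the cell cycle list is above 0 on all 5 untreated arrays and below 0 on all 5 antibiotic arrays, and the epithelial identity list stays between -0.13 and 0.19.

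Genes of dividing cells fell together. Of 40 tested cell cycle and DNA replication genes 18 fell and none rose (45% called), all 40 differences were below 0, and the median was -0.73. In KO mice, where 8.6% of all genes fell, 31 of the 40 fell. The called members included genes of mitosis and cytokinesis as well as of DNA replication. Kif23, a kinesin gene needed to complete cytokinesis, read 9.47, 8.96, 9.60, 9.75 and 9.06 on untreated arrays 1 to 5 and 7.20, 7.29, 8.56, 7.64 and 7.65 on antibiotic arrays 1 to 5. The groups did not overlap and antibiotic array 3 was the closest to the untreated arrays. Kif23 fell 3.25-fold (log2 -1.70, SE 0.22, adjusted p = 0.000105). Bub1b, a kinase gene of the spindle checkpoint, fell 2.41-fold (log2 -1.27, SE 0.19, adjusted p = 0.000490) from 7.15 to 7.90 untreated to 5.70 to 6.58 with antibiotics. Cdc20, which activates the anaphase-promoting complex, fell 2.58-fold (log2 -1.37, SE 0.23, adjusted p = 0.00107) from 7.87 to 9.29 untreated to 6.69 to 7.83 with antibiotics, and Birc5, the survivin gene of the chromosomal passenger complex, 2.28-fold (log2 -1.19, SE 0.22, adjusted p = 0.00312) from 7.51 to 8.88 untreated to 6.44 to 7.75 with antibiotics. All 4 stayed called with each single array left out and without untreated arrays 3 and 4, where 4 of the 40 genes were called and the median was -0.67. The count was 8 with median scaling over all probes and 14 with the leukocyte score as a covariate. Of 16 tested markers of the crypt base and stem cells none was called by limma (7 at an unadjusted p under 0.05, median -0.21), but 3 were lower with the replicate number as a block, and 3 lower and 1 higher without antibiotic array 3. Of 27 surface colonocyte markers Saa1 and Slc51a rose and Cyp2c55 fell (11.1% called, beside 5.57% of all genes, median 0.10). The share of dividing cells among those released was not measured.

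Promoters of cell cycle genes that are used in G2 and mitosis often hold a cell cycle homology element, read here as TTTGAA with the variant TTCGAA, and CCAAT boxes upstream of it. The promoters of the 3 cell cycle genes with the smallest p are shown because they fell together, each as the 250 bases before and the 50 after the RefSeq start in assembly GRCm38.p6, with every match of these hexamers and every CCAAT, on either strand, in capitals.
Kif23 (chr9:61946750-61947049, minus strand): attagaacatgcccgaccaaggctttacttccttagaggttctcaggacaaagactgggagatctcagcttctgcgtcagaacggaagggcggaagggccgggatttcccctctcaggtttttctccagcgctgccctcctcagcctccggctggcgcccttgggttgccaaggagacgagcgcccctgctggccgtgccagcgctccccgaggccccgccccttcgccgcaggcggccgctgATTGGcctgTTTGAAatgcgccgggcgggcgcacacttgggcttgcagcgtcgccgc
Bub1b (chr2:118597961-118598260, plus strand): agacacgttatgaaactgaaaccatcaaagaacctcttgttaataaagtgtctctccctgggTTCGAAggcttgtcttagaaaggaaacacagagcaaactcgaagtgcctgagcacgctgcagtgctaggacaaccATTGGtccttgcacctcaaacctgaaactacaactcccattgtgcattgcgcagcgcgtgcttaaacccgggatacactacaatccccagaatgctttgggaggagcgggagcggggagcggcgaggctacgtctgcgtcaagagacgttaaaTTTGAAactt
Cdc20 (chr4:118437294-118437593, minus strand): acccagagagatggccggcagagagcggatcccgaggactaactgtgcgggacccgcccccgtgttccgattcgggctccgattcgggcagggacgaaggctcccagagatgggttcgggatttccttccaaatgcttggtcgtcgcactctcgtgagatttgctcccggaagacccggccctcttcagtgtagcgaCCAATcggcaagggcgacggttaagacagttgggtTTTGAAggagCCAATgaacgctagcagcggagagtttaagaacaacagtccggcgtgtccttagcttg

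Each of the 3 windows held TTTGAA once, and CCAAT once in Kif23 and Bub1b and 2 times in Cdc20. Over the tested cell cycle genes with a window in the RefSeq table, 15 of 33 (45.5%) held the hexamer or its variant, against 14.2% of the windows of all 8691 tested genes that have one. CCAAT was in 24 of 33 (72.7%) against 38.7%. These are counts of letters, read on both strands with the first window of each gene, and no binding was measured.

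Goblet cell genes and the secretory pathway fell in part. Of 28 tested goblet cell markers 8 fell and 1 rose (32.1% called, median -0.41), among them Retnlb, Ang4 and Spink4 above, while the defining goblet cell genes were not called: Muc2, the main gel-forming mucin of the colon, had a mean of 14.58 ± 0.12 (SD, n = 5) untreated and 14.44 ± 0.13 (SD, n = 5) with antibiotics (adjusted p = 0.631), and Tff3, a trefoil factor gene, 12.95 ± 0.50 and 13.33 ± 0.22 (adjusted p = 0.264). Agr2, a disulfide isomerase gene needed to fold mucin, read 7.51, 7.20, 8.24, 7.33 and 6.93 on untreated arrays 1 to 5 and 5.74, 6.25, 6.01, 6.56 and 6.20 on antibiotic arrays 1 to 5. Its groups did not overlap and it fell 2.45-fold (log2 -1.29, SE 0.28, adjusted p = 0.010). Muc4, a membrane-bound mucin gene, was above background on all untreated arrays and no antibiotic array, and fell at least 1.43-fold (log2 -0.81, SE 0.16, adjusted p = 0.00467). Best2, a chloride and bicarbonate channel gene of colonic goblet cells, rose 2.43-fold (log2 1.28, SE 0.33, adjusted p = 0.0274), lost without untreated array 3 or 4 or antibiotic array 3, 4 or 5 (adjusted p 0.0520 to 0.0939). With untreated arrays 3 and 4 left out together, 0 of 28 goblet cell genes were called by limma (11 at an unadjusted p under 0.05, median -0.28).

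Of 34 mucin glycosylation genes 3 fell (8.82% called, beside 5.57% of all genes). Fut2, the fucosyltransferase gene that puts fucose on the epithelial surface and on mucins, read 10.62, 9.47, 10.46, 10.87 and 10.37 on untreated arrays 1 to 5 and 8.53, 9.64, 9.68, 8.69 and 9.0 on antibiotic arrays 1 to 5. Untreated array 2 lay within the antibiotic range, so the groups overlapped. Fut2 fell 2.38-fold (log2 -1.25, SE 0.24, adjusted p = 0.00356), with an adjusted p of 0.0725 without untreated arrays 3 and 4. Galnt3, which starts O-glycan chains, fell 2.35-fold (log2 -1.23, SE 0.29, adjusted p = 0.0137), with an adjusted p of 0.122 without the same arrays. A4gnt, which caps mucin glycans with N-acetylglucosamine, differed by -0.80 (SE 0.22, adjusted p = 0.0386), lost without untreated array 1, 3 or 4 or antibiotic array 1, 2, 4 or 5 (adjusted p 0.0655 to 0.137).

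The unfolded protein and ATF4 response couples protein folding and amino acid supply to transcription. Of its 35 tested genes 8 fell and none rose (22.9% called, beside 5.57% of all genes, median -0.47, with 30 differences below 0). In KO mice, where 8.6% of all genes fell, 18 of the 35 fell. Chac1, a glutathione-degrading enzyme gene induced by ATF4, read 7.16, 5.98, 7.37, 7.88 and 7.96 on untreated arrays 1 to 5 and 4.91, 4.96, 5.13, 5.90 and 5.24 on antibiotic arrays 1 to 5. Groups were apart, and the fall was 4.12-fold (log2 -2.04, SE 0.37, adjusted p = 0.00217). Mthfd2, of mitochondrial folate metabolism, fell 2.07-fold (log2 -1.05, SE 0.21, adjusted p = 0.00452) from 6.94 to 8.22 untreated to 6.15 to 6.75 with antibiotics. Asns, the asparagine synthetase gene, fell 1.72-fold (log2 -0.78, SE 0.17, adjusted p = 0.0111), and Pdia6, a disulfide isomerase gene of the endoplasmic reticulum, 1.91-fold (log2 -0.93, SE 0.20, adjusted p = 0.00910). Without untreated arrays 3 and 4 together 1 of the 35 was called, Chac1 (-1.80, adjusted p = 0.0451), and with median scaling 2.

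Several detoxifying enzymes rose. Of 39 tested cytochrome P450 and other phase I genes 8 rose and 1 fell (23.1% called, median 0.45). In KO mice, where 6.16% of all genes rose and 8.6% fell, 21 rose and 1 fell. The WT counts were 5 and 1 without untreated arrays 3 and 4. Cyp4b1, a P450 gene that oxidises fatty acids and foreign chemicals, read 5.86, 7.21, 4.78, 5.94 and 6.46 on untreated arrays 1 to 5 and 9.72, 9.41, 8.65, 9.44 and 9.68 on antibiotic arrays 1 to 5. Every antibiotic array was above every untreated one. Cyp4b1 rose 10.0-fold (log2 3.33, SE 0.45, adjusted p = 0.000155), also without untreated arrays 3 and 4 (2.87, adjusted p = 0.00493). The probe named for its pseudogene Cyp4b1-ps2, chosen after its value was seen, rose by 3.42 (SE 0.51, adjusted p = 0.000384), and these probes may share signal. Cyp2d26 read 7.16, 8.18, 6.48, 6.48 and 7.23 on untreated arrays 1 to 5 and 9.95, 9.89, 8.55, 9.43 and 9.31 on antibiotic arrays 1 to 5. Its groups did not overlap and it rose 4.99-fold (log2 2.32, SE 0.36, adjusted p = 0.000621). Its relative Cyp2d10 rose 3.01-fold (log2 1.59, SE 0.25, adjusted p = 0.000788). Genes of the Cyp2d family are similar in sequence, so their probes may share signal. Cyp4f14, which inactivates leukotriene B4, rose 2.55-fold (log2 1.35, SE 0.20, adjusted p = 0.000353) from 10.56 to 11.12 untreated to 11.63 to 12.67 with antibiotics.

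Cyp2c55 went the other way. It is a P450 gene abundant in the colon, and it read 13.30, 13.61, 13.22, 13.43 and 13 on untreated arrays 1 to 5 and 12.51, 12.26, 11.44, 11.92 and 11.88 on antibiotic arrays 1 to 5. No array of one group reached the other, and Cyp2c55 fell 2.48-fold (log2 -1.31, SE 0.25, adjusted p = 0.00378), while its difference in KO mice was -0.37 (adjusted p = 0.343). The WT effect minus the KO effect was -0.94 (SE 0.34, adjusted p = 0.515). Among 46 phase II conjugation genes 3 rose and 1 fell (8.70% called, beside 5.57% of all genes, median 0.16). The glutathione transferase gene Gsto1 rose 1.67-fold (log2 0.74, SE 0.17, adjusted p = 0.0136) with groups that did not overlap, but with an adjusted p of 0.130 without untreated arrays 3 and 4. There, and with median scaling over all probes, 0 genes of the list were called by limma (12 and 8 at an unadjusted p under 0.05). Gss, of glutathione synthesis, differed by 0.66 (adjusted p = 0.0300), lost without untreated array 3, 4 or 5 or antibiotic array 1, 2 or 4 (adjusted p 0.0580 to 0.0883). The bilirubin glucuronosyltransferase gene Ugt1a1 differed by 1.35 (adjusted p = 0.0304), lost without untreated array 3, 4 or 5 or antibiotic array 1, 2, 4 or 5 (adjusted p 0.0502 to 0.0967). Ugt2b35, which fell, differed by -0.74 (adjusted p = 0.0285), lost without untreated array 1, 3 or 4 or antibiotic array 1, 2 or 5 (adjusted p 0.0532 to 0.0989).

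Of 18 genes of bile acid handling and nuclear receptors 3 rose and none fell (16.7% called, beside 5.57% of all genes, median 0.28). Cyp27a1, a sterol 27-hydroxylase gene, read 7.94, 8.35, 6.52, 7.21 and 8.15 on untreated arrays 1 to 5 and 8.62, 9.0, 9.16, 9.25 and 9.56 on antibiotic arrays 1 to 5, with groups that did not overlap. It rose 2.80-fold (log2 1.49, SE 0.27, adjusted p = 0.00204), also without untreated arrays 3 and 4 (0.97, adjusted p = 0.0345). Slc51a, a subunit gene of the exporter that moves bile acids out of enterocytes, read 11.19, 11.75, 9.89, 10.49 and 10.45 on untreated arrays 1 to 5 and 12.39, 12.86, 11.86, 11.91 and 12.10 on antibiotic arrays 1 to 5. It rose 2.76-fold (log2 1.47, SE 0.35, adjusted p = 0.0169), lost without untreated array 3 or antibiotic array 2 (adjusted p 0.0510 to 0.0660). Nr1h3, the oxysterol receptor gene LXR alpha, differed by 0.86 (adjusted p = 0.0194), lost without untreated array 3 or 4 or antibiotic array 2 (adjusted p 0.0573 to 0.0661).

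Some brush border digestive enzymes and nutrient transporters rose. Of 21 tested brush border genes 3 rose and none fell (14.3% called, beside 5.57% of all genes, median 0.38). Of the 21 differences, 19 were above 0. Naaladl1, a brush border peptidase gene, read 4.91, 5.27, 4.36, 4.65 and 5.43 on untreated arrays 1 to 5 and 7.86, 8.09, 7.5, 7.86 and 8.14 on antibiotic arrays 1 to 5. The groups were far apart, and Naaladl1 was detected on 3 untreated and 5 antibiotic arrays. It rose 7.81-fold (log2 2.97, SE 0.35, adjusted p = 4.11e-05), also without untreated arrays 3 and 4 (2.69, adjusted p = 0.00192). Sis, the sucrase-isomaltase gene that digests starch and sucrose in the small intestine, read 4.38, 4.88, 4.23, 4.60 and 4.30 on untreated arrays 1 to 5 and 7.12, 6.95, 8.30, 6.61 and 6.40 on antibiotic arrays 1 to 5. It was above background on 1 untreated array and on all antibiotic arrays, highest on antibiotic array 3, and rose (log2 2.60, SE 0.29, adjusted p = 1.74e-05), a difference measured against 4 untreated values that were not above background. Xpnpep2, a membrane aminopeptidase gene, rose 2.12-fold (log2 1.08, SE 0.26, adjusted p = 0.0167), lost without untreated array 3 or antibiotic array 2 (adjusted p 0.0532 to 0.0601).

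Of 20 amino acid and peptide transport genes 2 rose and none fell (10% called, beside 5.57% of all genes, median 0.24). Slc7a9, the cystine and dibasic amino acid transporter gene, read 6.55, 6.75, 6.09, 6.58 and 6.41 on untreated arrays 1 to 5 and 8.38, 8.86, 7.91, 8.71 and 8.69 on antibiotic arrays 1 to 5. The groups did not overlap and the spread within each was small. Slc7a9 rose 4.11-fold (log2 2.04, SE 0.20, adjusted p = 3.68e-06), and without untreated arrays 3 and 4 the difference was 1.95 (adjusted p = 0.000162). The peptide transporter gene Slc15a1 rose 2.15-fold (log2 1.11, SE 0.24, adjusted p = 0.00841) from 4.76 to 6.20 untreated to 6.03 to 6.70 with antibiotics, with an adjusted p of 0.134 without these arrays.

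In colonocyte salt and water transport 3 of 37 genes rose and 1 fell (10.8% called, beside 5.57% of all genes, median 0.05). Scnn1g, a subunit gene of the aldosterone-responsive sodium channel, read 5.72, 5.38, 4.95, 4.95 and 5.74 on untreated arrays 1 to 5 and 7.0, 7.55, 7.63, 6.52 and 6.78 on antibiotic arrays 1 to 5. Again without overlap, Scnn1g rose 3.37-fold (log2 1.75, SE 0.25, adjusted p = 0.000197), also without untreated arrays 3 and 4 (1.48, adjusted p = 0.00963). Hsd11b2, which protects the mineralocorticoid receptor from glucocorticoids, differed by 1.03 (SE 0.28, adjusted p = 0.0348) with overlapping groups, lost without untreated array 1, 3 or 4 or antibiotic array 2, 3, 4 or 5 (adjusted p 0.0545 to 0.125). The potassium channel gene Kcnn4 fell 1.61-fold (log2 -0.68, SE 0.16, adjusted p = 0.0155), lost without untreated array 1 or antibiotic array 1 (adjusted p 0.0502 to 0.0504).

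Some genes of the circadian clock and its output rose. Of 17 tested circadian genes 3 rose and none fell (17.6% called, beside 5.57% of all genes, median 0.30). Dbp, a transcription factor gene that cycles over the day, read 6.15, 6.83, 5.52, 5.13 and 6.07 on untreated arrays 1 to 5 and 9.30, 10.01, 9.24, 7.74 and 7.16 on antibiotic arrays 1 to 5. Both groups were apart, and antibiotic arrays 1 to 3 were higher than antibiotic arrays 4 and 5. Dbp rose 6.73-fold (log2 2.75, SE 0.72, adjusted p = 0.0283), lost without untreated array 1, 3 or 4 or antibiotic array 1 or 2 (adjusted p 0.0504 to 0.0845) and without untreated arrays 3 and 4 (2.34, adjusted p = 0.248). Tef, a relative of Dbp, read 4.73, 5.77, 5.08, 4.84 and 4.95 on untreated arrays 1 to 5 and 7.43, 7.43, 5.94, 6.65 and 6.94 on antibiotic arrays 1 to 5, with groups that did not overlap. It rose 3.49-fold (log2 1.80, SE 0.35, adjusted p = 0.00399). Cry2, a repressor gene of the clock, rose 1.96-fold (log2 0.97, SE 0.19, adjusted p = 0.00419) from 4.52 to 5.07 untreated to 5.64 to 6.02 with antibiotics. No hour of sampling is named in the labels, so time of day and treatment cannot be told apart. Without untreated arrays 3 and 4 the adjusted p was 0.0502 for Tef and 0.0502 for Cry2. In KO mice the differences were 1.24 (adjusted p = 0.260) for Dbp, 0.89 (adjusted p = 0.0694) for Tef and 0.92 (adjusted p = 0.000757) for Cry2.

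Mt1 and Mt2, the genes of metallothioneins, small proteins that bind zinc and copper, rose. Mt1 read 12.64, 13.58, 12.79, 12.46 and 11.99 on untreated arrays 1 to 5 and 14.74, 14.54, 14.17, 14.03 and 14.06 on antibiotic arrays 1 to 5. Every antibiotic array was above every untreated array, and Mt1 rose 3.06-fold (log2 1.61, SE 0.26, adjusted p = 0.000684), also without untreated arrays 3 and 4 (1.57, adjusted p = 0.0137). Mt2 read 4.86, 5.67, 5.65, 4.77 and 4.27 on untreated arrays 1 to 5 and 8.10, 7.06, 5.19, 6.22 and 6.62 on antibiotic arrays 1 to 5. Its antibiotic array 3 lay within the untreated range, and the rise of 3.02-fold (log2 1.60, SE 0.44, adjusted p = 0.0366) was lost without untreated array 1, 3, 4 or 5 or antibiotic array 1, 2, 4 or 5 (adjusted p 0.0510 to 0.114). Slc39a4, the zinc importer gene of the intestine, fell 1.54-fold (log2 -0.62, SE 0.18, adjusted p = 0.0466) with groups that did not overlap, but was not called without any one of 16 arrays, WT and KO (adjusted p up to 0.141). In all, 2 of 19 metallothionein, zinc and iron genes rose and 1 fell (15.8% called, beside 5.57% of all genes, median -0.03).

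Metallothionein promoters hold metal response elements, to which a zinc-sensing factor binds. The promoters of Mt1 and Mt2, which are neighbours on mouse chromosome 8, are shown as RefSeq windows of GRCm38.p6 like those above, with each match on either strand to the core of that element, TGCACNC with the variant TGCGCNC, in capitals.
Mt1 (chr8:94178839-94179138, plus strand): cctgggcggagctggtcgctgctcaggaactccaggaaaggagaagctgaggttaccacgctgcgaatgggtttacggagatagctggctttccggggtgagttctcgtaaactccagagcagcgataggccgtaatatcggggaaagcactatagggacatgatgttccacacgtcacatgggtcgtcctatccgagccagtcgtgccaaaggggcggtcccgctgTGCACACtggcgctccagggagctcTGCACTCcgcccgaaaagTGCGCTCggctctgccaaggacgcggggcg
Mt2 (chr8:94172368-94172667, plus strand): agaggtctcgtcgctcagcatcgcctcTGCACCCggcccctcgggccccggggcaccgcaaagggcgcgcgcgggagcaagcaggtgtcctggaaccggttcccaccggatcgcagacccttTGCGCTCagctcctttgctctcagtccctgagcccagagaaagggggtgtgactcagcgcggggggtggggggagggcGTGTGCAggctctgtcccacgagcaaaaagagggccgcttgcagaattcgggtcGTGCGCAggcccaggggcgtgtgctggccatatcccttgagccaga

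The core matched 3 times in the Mt1 window and 4 times in that of Mt2. At least one match was in 35.3% of the windows of all 8691 tested genes that have one and in 9 of 14 (64.3%) of those in the metallothionein, zinc and iron list.

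**Figure D4:**
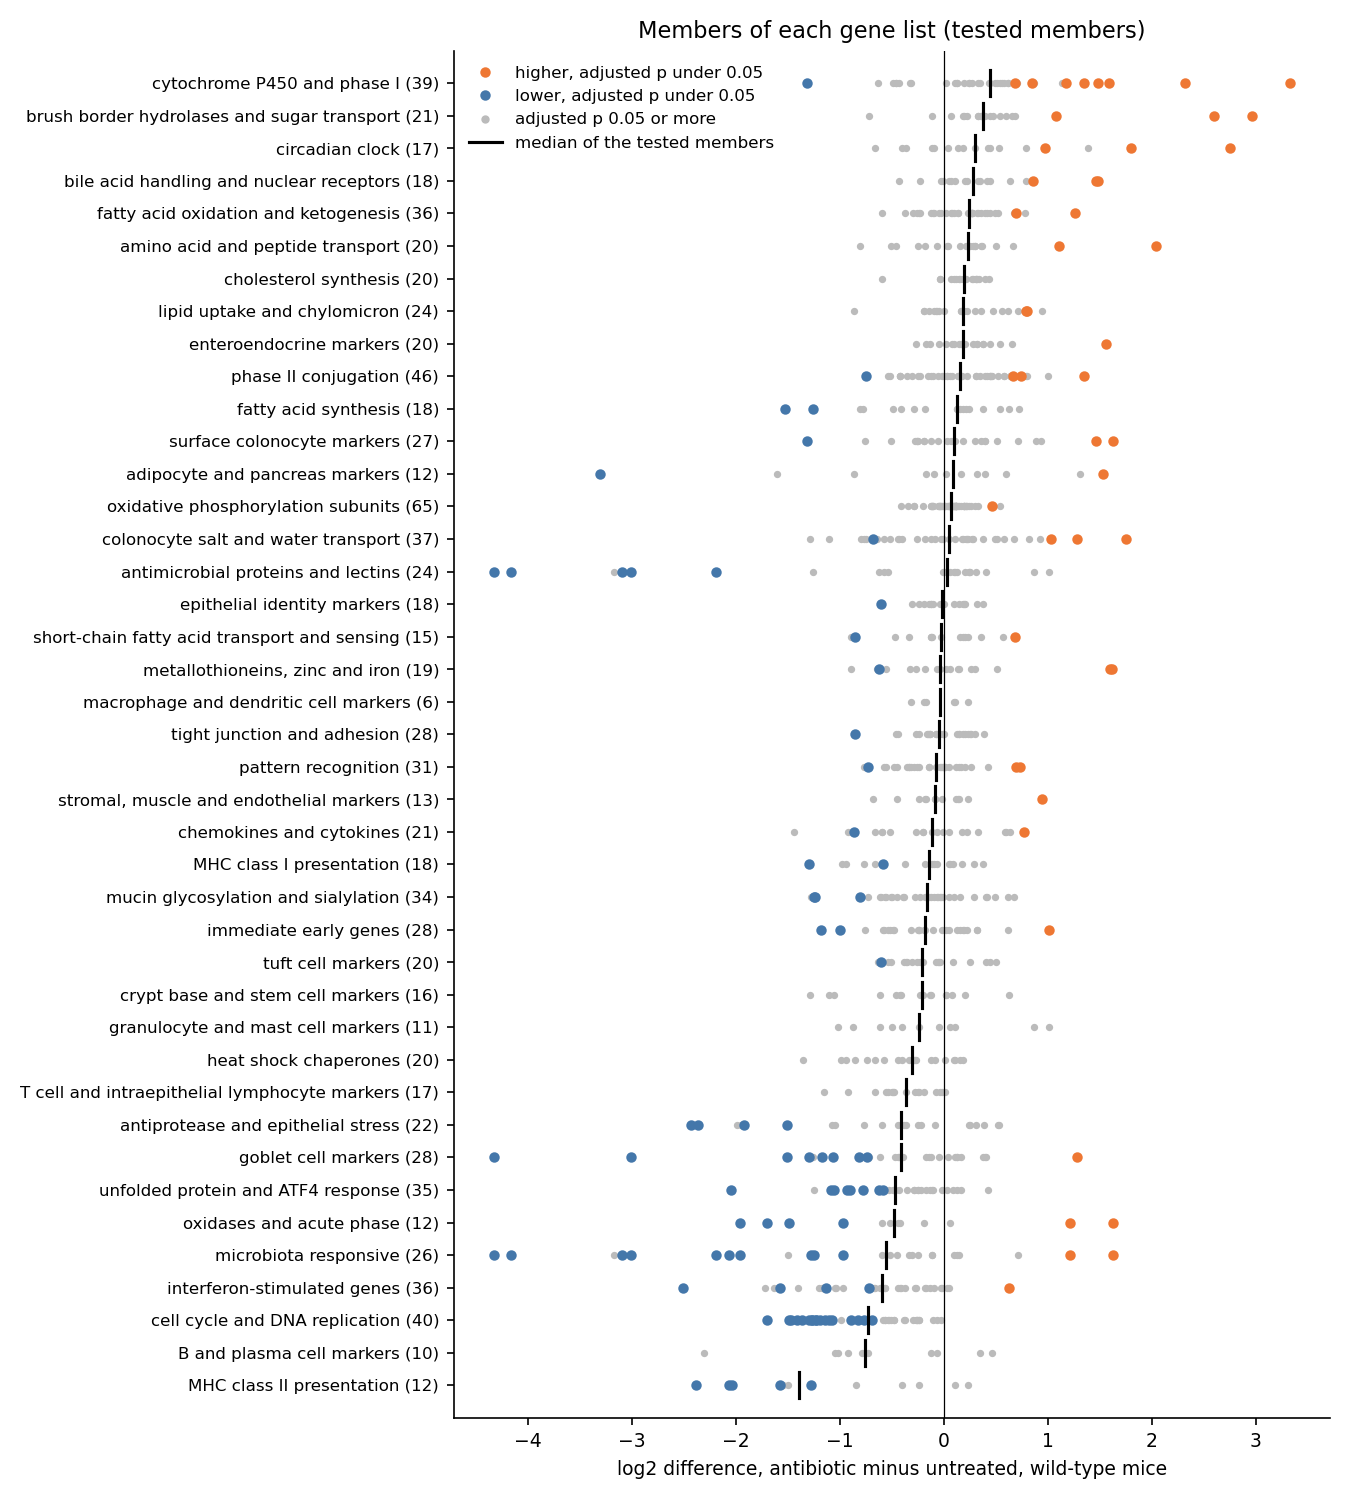
Log2 difference, antibiotic minus untreated (x axis), of the tested members of 41 gene lists (rows, number of tested members in brackets), ordered by median (black bar). Orange and blue points are members that rose and fell, grey points members with an adjusted p of 0.05 or more. The cytochrome P450 list has the highest median and the MHC class II list the lowest, and all points of the cell cycle list are below 0.

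Casp14, Bmp1, Nbl1 and Odf3b were among the 15 largest rises and in none of the lists. Casp14, a caspase gene of keratinocyte differentiation, read 7.84, 7.93, 5.93, 6.62 and 9.51 on untreated arrays 1 to 5 and 9.19, 9.27, 10.50, 10.45 and 10.39 on antibiotic arrays 1 to 5. Untreated array 5 lay above antibiotic arrays 1 and 2, and Casp14 rose 5.25-fold (log2 2.39, SE 0.50, adjusted p = 0.00737), with an adjusted p of 0.150 without untreated arrays 3 and 4. Bmp1, the procollagen C-proteinase gene, read 5.67, 6.00, 5.35, 5.49 and 5.26 on untreated arrays 1 to 5 and 7.67, 7.94, 7.30, 7.44 and 7.96 on antibiotic arrays 1 to 5. Its groups did not overlap and it rose 4.31-fold (log2 2.11, SE 0.29, adjusted p = 0.000181). Nbl1, an antagonist gene of bone morphogenetic proteins, rose 3.43-fold (log2 1.78, SE 0.31, adjusted p = 0.00145) from 5.62 to 7.48 untreated to 8.31 to 8.75 with antibiotics, and Odf3b, named for sperm outer dense fibres, 3.06-fold (log2 1.61, SE 0.24, adjusted p = 0.000384) from 6.37 to 7.73 untreated to 8.54 to 9.07 with antibiotics. Bmp1, Nbl1 and Odf3b stayed called without untreated arrays 3 and 4 (adjusted p = 0.00564, 0.0345 and 0.0105). Tac1, the substance P precursor gene, was the only called gene of 20 enteroendocrine markers and rose 2.95-fold (log2 1.56, SE 0.29, adjusted p = 0.00313) from 4.76 to 6.43 untreated to 6.58 to 7.56 with antibiotics. The adjusted p of Tac1 was 0.0835 without untreated arrays 3 and 4, where the median of the list was -0.10.

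Lists of lipid and energy metabolism had few calls. Called were 5.56% of fatty acid oxidation, 11.1% of fatty acid synthesis and 8.33% of lipid uptake genes, beside 5.57% of all genes. In fatty acid oxidation 2 of 36 rose (median 0.24), Acad12 (log2 1.26, SE 0.22, adjusted p = 0.00177) and Decr2 (log2 0.69, SE 0.17, adjusted p = 0.0175), the latter lost without untreated array 3 (adjusted p = 0.0660). In fatty acid synthesis 2 of 18 fell (median 0.13), Acacb, an acetyl-CoA carboxylase gene (log2 -1.26, SE 0.27, adjusted p = 0.00798), and Me1, the cytosolic malic enzyme gene (log2 -1.52, SE 0.37, adjusted p = 0.0179), the latter lost without untreated array 3 or 4 or antibiotic array 5 (adjusted p 0.0551 to 0.0696). In lipid uptake 2 of 24 rose (median 0.19), the triglyceride synthesis gene Dgat1 (log2 0.81, SE 0.20, adjusted p = 0.0192), lost without untreated array 3 or 4 or antibiotic array 1 (adjusted p 0.0577 to 0.0660), and the lipid droplet gene Cideb (log2 0.79, SE 0.20, adjusted p = 0.0240), lost without untreated array 3 or 4 or antibiotic array 1 or 5 (adjusted p 0.0622 to 0.0736). Of 20 cholesterol synthesis genes none was called by limma (4 at an unadjusted p under 0.05, median 0.20), and of 65 oxidative phosphorylation genes 1 rose (1.54% called, median 0.07), the complex I gene Ndufs3 (0.46, adjusted p = 0.0330), lost without untreated array 1, 3, 4 or 5 or antibiotic array 1 or 2 (adjusted p 0.0527 to 0.0974). Butyrate and other short-chain fatty acids are made by colonic bacteria and burned by colonocytes. Of 15 genes of their transport and sensing 1 rose and 1 fell (13.3% called, beside 5.57% of all genes, median -0.02). The rise was that of Bsg, which carries monocarboxylate transporters to the membrane (0.68, adjusted p = 0.0264), lost without untreated array 3 or 4 or antibiotic array 1, 2 or 4 (adjusted p 0.0542 to 0.0926). The receptor gene Ffar2 fell (log2 -0.85, SE 0.18, adjusted p = 0.00780), with an adjusted p of 0.0977 without untreated arrays 3 and 4, and it was not called with median scaling over all probes. It read 9.69, 9.81, 9.90, 9.80 and 9.53 on untreated arrays 1 to 5 and 8.27, 9.12, 9.39, 8.69 and 9.0 on antibiotic arrays 1 to 5, with groups that did not overlap.

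Sensing, signalling and junction genes gave few calls. Of 31 pattern recognition genes 2 rose and 1 fell (9.68% called, beside 5.57% of all genes, median -0.07). Of 21 chemokine and cytokine genes 1 rose and 1 fell (9.52% called, median -0.11). Of 28 immediate early genes 1 rose and 2 fell (10.7% called, median -0.18). Of 28 tight junction and adhesion genes 1 fell (3.57% called, median -0.04). The rises were those of Relb (0.69), Sigirr (0.73), Cxcl12 (0.77) and Jund (1.01), and the falls those of Tlr3 (-0.73), Tnfsf13b (-0.86), Gadd45g (-1.17), the claudin gene Cldn15 (-0.86) and Dusp6. Dusp6, a phosphatase gene that limits ERK signalling, fell 2.00-fold (log2 -1.0, SE 0.22, adjusted p = 0.0107) from 9.38 to 10.51 untreated to 8.75 to 9.44 with antibiotics, and of these 9 calls it alone held with every single array left out. Relb was lost without untreated array 3 or 4 or antibiotic array 2, 4 or 5 (adjusted p 0.0519 to 0.0749), Sigirr without untreated array 3 or 4 or antibiotic array 1 or 2 (adjusted p 0.0623 to 0.0839), Cxcl12 without untreated array 1, 4 or 5 or antibiotic array 1, 2, 4 or 5 (adjusted p 0.0509 to 0.0800), Jund without untreated array 1 or 3 or antibiotic array 1 or 2 (adjusted p 0.0523 to 0.0844) and Tnfsf13b without untreated array 3 or 4 or antibiotic array 4 or 5 (adjusted p 0.0607 to 0.0939), while Tlr3, Gadd45g and Cldn15 were lost without any one of 14, 13 and 17 arrays (adjusted p up to 0.143, 0.147 and 0.153). The adjusted p of Dusp6 without untreated arrays 3 and 4 was 0.191. Of 20 heat shock chaperones none was called by limma (7 at an unadjusted p under 0.05, median -0.31), and of 20 tuft cell markers 1 fell, Krt18 (log2 -0.60, SE 0.17, adjusted p = 0.0407), which is also the only call among 18 epithelial identity markers (median -0.02) and was lost without untreated array 1, 3 or 4 or antibiotic array 1, 2, 3, 4 or 5 (adjusted p 0.0522 to 0.140).

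Markers of cells outside the epithelium were measured in all groups. Limma called 0 of 17 genes that mark T cells and intraepithelial lymphocytes (median -0.37, with 3 at an unadjusted p under 0.05). It called 0 of 6 markers of macrophages and dendritic cells (median -0.04, with 0 at an unadjusted p under 0.05) and 0 of 11 for granulocytes and mast cells (median -0.23, with 0 at an unadjusted p under 0.05). These 17, 6 and 11 tested genes are those left of 24, 21 and 21 with a named probe. The others were detected on too few arrays to be tested. The CD3 chain genes Cd3e and Cd3g of the T cell receptor complex were detected on all WT arrays, with differences of -0.48 (adjusted p = 0.616) and -0.23 (adjusted p = 0.809). Collagen gene Col1a1, mast cell protease gene Mcpt2 and complement gene C1qa, defining markers of stroma, mucosal mast cells and macrophages, were not above background on any WT array. The other defining marker of each of these cell types was detected. Mast cell protease gene Mcpt1 was detected on all WT arrays (-1.02, adjusted p = 0.396). Acta2, of stroma and muscle, was detected on 5 untreated and 3 antibiotic arrays (-0.23, adjusted p = 0.856). Csf1r, of macrophages, was detected on 3 untreated and 4 antibiotic arrays (0.10, adjusted p = 0.760). Among 13 stromal markers Mylk, a myosin kinase gene, rose (log2 0.95, SE 0.20, adjusted p = 0.00829; adjusted p = 0.0519 without untreated arrays 3 and 4), and among 12 adipocyte and pancreas markers the elastase gene Cela1 rose (log2 1.53, SE 0.29, adjusted p = 0.00329; adjusted p = 0.0681 without them) while Pnliprp2 fell. A score over leukocyte markers averaged 0.07 ± 0.20 (SD, n = 5) untreated and -0.27 ± 0.26 (SD, n = 5) with antibiotics, and the part of leukocytes in the results was not tested beyond the fit with that score as a covariate, which called 674 probes.

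Of 26 tested genes that are known to respond to the gut microbiota, 10 fell and 2 rose (46.2% called beside 5.57% of all genes, median -0.55). Since this list was chosen with earlier results of these data known, its share of called genes is no test of enrichment. The falls were those of Pla2g2a, Ang4, Reg3g, Retnlb, Reg3b, H2-Ab1, Duoxa2, Ciita, Fut2 and Duox2, and the rises those of Saa1 and Saa2. In KO mice, where 14.8% of all genes were called, H2-Ab1, Ciita (-0.64, adjusted p = 0.254) and Saa2 (0.72, adjusted p = 0.0526) were not called, while Saa3, B4galnt2 (-0.82, adjusted p = 0.0474) and Angptl4 (0.98, adjusted p = 0.0266) were. The other 14 were not called in WT. Among them Angptl4, an inhibitor gene of lipoprotein lipase, differed by 0.71 (adjusted p = 0.216), the inflammasome gene Nlrp6 by -0.33 (adjusted p = 0.251) and Il18 by -0.52 (adjusted p = 0.522). The flagellin receptor gene Tlr5 differed by 0.15, the bacterium-binding protein genes Zg16 and Lypd8 by 0.12 and 0.10, and the chemokine gene Ccl28 by -0.11. B4galnt2, Sprr2a1 and Hdac3 differed by -0.45, -0.25 and -0.12, and 1 of the 2 tested Sprr2a1 probes was called. Pigr itself, the receptor that carries IgA into the lumen, read 11.78, 11.74, 12.50, 11.62 and 11.61 on untreated arrays 1 to 5 and 11.42, 11.32, 11.48, 12.01 and 11.50 on antibiotic arrays 1 to 5, with overlapping groups and a difference of -0.30 (SE 0.31, adjusted p = 0.645). Of the 26, without untreated arrays 3 and 4 together, 4 fell and 1 rose.

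The WT effect was set beside the antibiotic effect in KO mice, which rests on other arrays. Both effects share the same normalisation and the same estimate of the spread of each probe. Shared calls are therefore not an independent replication. In KO mice 1580 of 10705 genes were called (14.8%), 659 higher (6.16%) and 921 lower (8.6%). Of the 285 genes that rose in WT, 183 (64.2%) also rose in KO mice, and of the 311 that fell, 228 (73.3%) also fell. No gene was called in opposite directions, and 577 of the 596 had the same sign (96.8%, beside 62.7% of all 10705 genes). The shared calls were 69.0% of the WT calls and 26.0% of the KO calls. Pla2g2a fell by 4.77 on the log2 scale in KO mice, Dlk1 by 3.31, Cd177 by 3.17 and Duoxa2 by 3.56, and Cyp4b1 and Naaladl1 rose by 3.56 and 3.0.

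The difference between the genotypes was tested for every probe, and 2 of 19993 probes (0.01%) were called. One is a probe of Defa3, a Paneth cell defensin gene, with mean levels of 4.63 untreated and 4.24 with antibiotics in WT and of 7.40 and 4.30 in KO mice. It was thus near background in WT and in treated KO mice and high in untreated KO mice. Its difference was -0.39 in WT (SE 0.31, adjusted p = 0.536) and -3.10 in KO mice, and the WT effect minus the KO effect was 2.71 (SE 0.43, adjusted p = 0.0148). Another Defa3 probe gave 2.63 (SE 0.50, adjusted p = 0.0689), and since defensin genes are near-identical such probes may read several of them. The second called probe has no gene name here, with mean levels of 4.80 and 4.24 in WT and of 8.06 and 4.29 in KO mice, and a WT effect minus KO effect of 3.21 (SE 0.48, adjusted p = 0.0129). Both probes lie outside the rule for named genes and were picked with their values known. No other gene above was called for a difference between the genotypes, also where it was called in WT and not in KO mice, as for Tef, Dbp, Ifit2 (-1.42, adjusted p = 0.134 in KO mice) and H2-Ab1 (-1.07, adjusted p = 0.132 in KO mice). Leaving out single arrays gave 1 to 22 probes for this test, and without untreated arrays 3 and 4 together it gave 61.

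**Figure D5:**
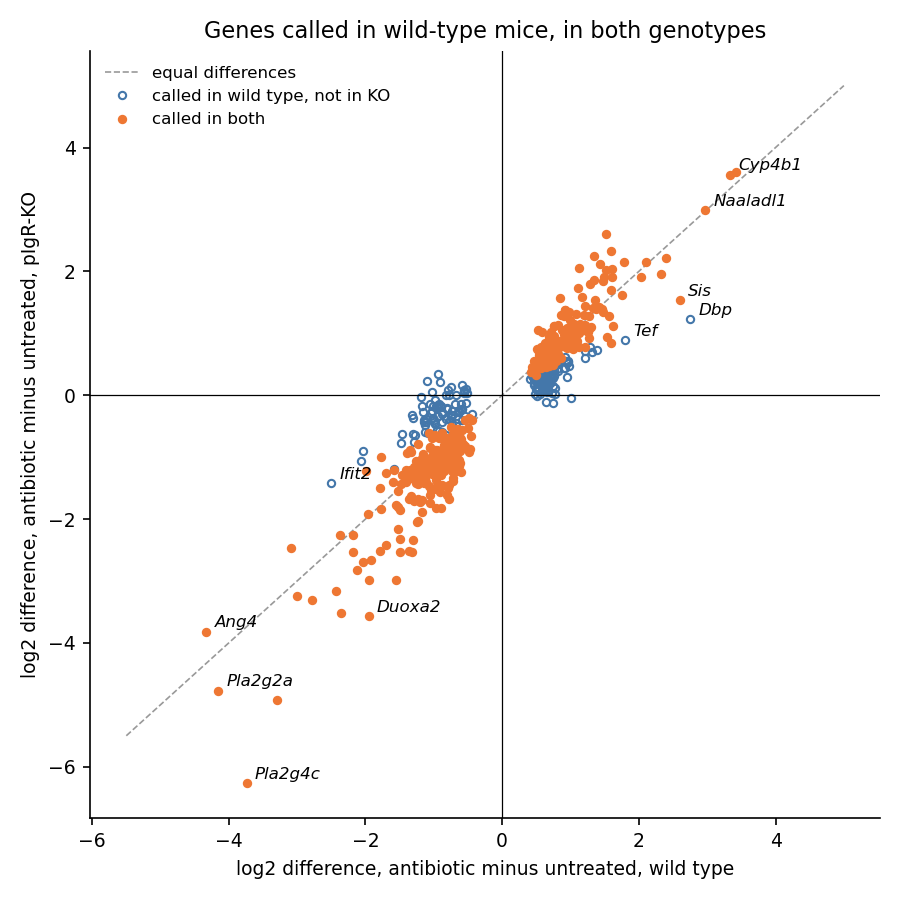
Log2 difference, antibiotic minus untreated, in WT (x axis) and KO mice (y axis) for the 596 genes called in WT. Filled orange points are called in both genotypes and open blue points in WT and not in KO mice, and the dashed line marks equal differences. No called gene of one genotype is called in the opposite direction in the other, and Pla2g4c lies furthest below the line.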

How the data were processed

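RNA of colon epithelial cells was copied into biotin-labelled cRNA and measured on 22 Illumina mouse bead arrays, per the labels' protocols. The authors deposited a table of non-normalised intensity, the mean bead signal of each of 45281 probes, with a detection p-value per probe and array, per the file headers, and a quantile-normalised intensity table whose normalisation was read from its values. The deposited intensity values were background-corrected, quantile-normalised and put on a log2 scale with neqc (limma 3.58.1 in R 4.3.3, offset 16) over all 22 arrays. Tested were the 19993 probes detected (p under 0.05) on 5 or more arrays, in one fit with a mean per group, lmFit and eBayes, with Benjamini-Hochberg adjustment over all of them and a threshold of 0.05. The KO arrays share in the normalisation and in the estimate of spread. For each gene the brightest tested probe was used, and 34885 probes have 1 gene symbol, 18 several and 10378 none. Named are the 15 largest rises and 15 largest falls (predicted genes, pseudogenes and unnamed loci passed over), up to 4 members per list with the smallest p, all members of the microbiota list, and Pigr. Where no array of a group detected a probe, a bound is given, at least N-fold, from the dimmest detected probe per array. The members and the gene lists were chosen with earlier results of these data known. Precision is limited by how many arrays there are, with a median standard error of 0.18 on the log2 scale. The fit and its calls were tested on simulated log2 values with independent noise around the mean of each probe. Background correction, normalisation, the filter and deviating arrays were not simulated. Figures were drawn with matplotlib 3.10.9. The alternatives are given in the closing section.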

Additional observations from a re-analysis of the deposited data

Results flagged for a closer look

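In 228 groups of 5 arrays, 2 for each of the 114 genes named above, the highest or lowest array was far from the rest 11 times. Chance gives about 1 in 20, so this count is about what chance gives, and the cases are listed only as values to check. Pigr stood out on untreated array 3 (12.50, nearest 11.78) and on antibiotic array 4 (12.01, nearest 11.50). Antibiotic array 3 was low for Saa1 (13.10, nearest 14.05) and Angptl4 (5.07, nearest 5.78). Antibiotic array 2 was high for Nr1h3 (7.97, nearest 7.16) and Cldn15 (9.75, nearest 8.85). Antibiotic array 1 was low for Cela1 (11.07, nearest 11.60) and high for Gsto1 (12.86, nearest 12.38). Untreated array 3 was low for Decr2 (5.81, nearest 6.14), untreated array 4 was high for Slc39a4 (12.33, nearest 11.93), and antibiotic array 5 was high for Pnliprp2 (6.76, nearest 5.03).

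The antibiotic effect differed between WT and KO mice, by the test of the difference itself, for a Defa3 probe (2.71 on the log2 scale) and for a probe with no gene name here (3.21). Both were near background in WT mice with and without antibiotics, so the differences rest on the KO arrays.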

How the results depend on the processing

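The count of 950 probes for the WT comparison was 237 with median scaling over all probes, 550 with no filter, 2276 with array weights, 187 without untreated arrays 3 and 4 together, and 411 to 1314 with single arrays left out. It was between 648 and 990 under the other settings: no background correction, median scaling over only the probes that all arrays detected, the authors' processed values, a stricter filter, the replicate number as a block (988), only the WT arrays, probes averaged per gene, the leukocyte score as a covariate, and both antibiotic arrays 2 and 3 left out. The count of 2 probes for the difference between the genotypes was 0 with no background correction (lowest adjusted p 0.105, 1798 at an unadjusted p under 0.05), 0 with median scaling over all probes (746 at an unadjusted p under 0.05), 0 with the authors' values (1788), 0 with no filter (2967) and 0 without antibiotic arrays 2 and 3 (1472), all by limma. It was 17 with array weights, 61 without untreated arrays 3 and 4, and 1 to 22 with single arrays left out. The difference in detected probes was -9 to -527 with single arrays left out. The causes were not tested. Leaving out arrays in pairs, 2 and 3 of the antibiotic or 3 and 4 of the untreated group, was chosen after seeing the data. All fits with arrays left out, singly or in pairs, kept the normalisation and the filter of all 22 arrays.

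Of the 98 called genes named above, none reversed under any setting. The number no longer called was 48 with median scaling over all probes, 39 with no filter, 26 with the leukocyte score, 65 without untreated arrays 3 and 4, 0 with the stricter filter and 1 with array weights. The replicate numbers did not pair the arrays: deviations of same-numbered arrays correlated at -0.15 to 0.10, and 1 of 5 untreated arrays matched its own number best. The replicate block ended 4 of the 98 calls. A fit with the slide as a block was not run, because the files used here name no slides. For genes near background in at least 1 group, such as Sis, Duox2 and Muc4, the size of the difference is limited by the background signal.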
